A study of Mus musculus with 4 samples.

Results

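H3K27ac peaks were examined at 7 genes for scavenger and endocytic receptors of liver sinusoidal endothelial cells (LSECs), *Stab1*, *Stab2*, *Lyve1*, *Mrc1*, *Clec4g*, *Fcgr2b*, and *Oit3*. The genes were chosen by name as receptors or markers of these cells, with earlier results of these data known. They make up 7 of the 21887 protein-coding genes on the mouse chromosomes of the GRCm38 annotation. For each gene, all deposited peaks in the gene body and the 10 kb on each side were taken. Peaks were split into those within 1 kb of either end of the gene and those farther from both ends, called distal here.

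The deposit describes a search for potential regulatory elements in LSECs, for which H3K27ac, a histone acetylation found at active promoters and enhancers, was profiled by ChIP-Seq. There were 2 H3K27ac libraries of 1 condition, C2 and C3, numbered replicates 2 and 3, and 2 input libraries with the same numbers, which were not analysed here. Fixation took 10 minutes in 1% formaldehyde, and 125 mM glycine stopped it over 5 minutes. Nothing in the sources used here says whether C2 and C3 came from separate animals. The labels give the organism and the cell type but no strain, genotype, age, sex, or treatment. The study isolated its mouse LSECs with anti-CD146 microbeads from genetically modified lines, and which mice gave these libraries is not stated. The labels describe sonicated chromatin and a ligation kit, whereas the study's methods describe a tagmentation-assisted protocol.

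LSECs line the liver sinusoids as a fenestrated endothelium without a continuous basement membrane. They clear soluble macromolecules and small particles from the blood, and most of this uptake runs through a small set of receptors that enter clathrin-coated vesicles and deliver their cargo to endosomes and lysosomes. Expression of these receptors is widely used to tell LSECs from continuous capillary endothelium.

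The C2 list held 26975 peaks with a median fold enrichment over background of 9.76, and the C3 list held 64498 peaks with a median of 8.89. C3 therefore had 2.39 times as many peaks. The number of reads behind each list is unknown, so fold enrichments were ranked within each list and were not put on a common scale. A region is a stretch of overlapping C2 and C3 peaks, and it is called shared when it holds at least 1 peak of each library.

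All 7 receptor genes carried H3K27ac peaks in both libraries, as did 58.5% of all protein-coding genes. Their windows held 33 C2 peaks, 4 near a gene end and 29 distal, and 92 C3 peaks, 18 near and 74 distal. Merging gave 32 shared regions, 60 regions with a C3 peak only, and 0 with a C2 peak only. Of the shared regions, 5 lay near a gene end and 27 were distal, 17 of the latter in a gene body and 10 in a flank. A C2 peak overlapped 34.8% of the 92 C3 peaks (95% Wilson interval, 25.8% to 44.9%, for the counting of peaks only), against 37.7% of the whole C3 list.

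In the receptor windows, most shared regions lay away from the ends of the window's own gene. The windows of all protein-coding genes held a mean of 0.804 distal and 0.489 near. A region in several windows was counted in each, and a distal region can lie at an end of another gene. Of the 27 distal regions at the receptor genes, 5 lay within 1 kb of such an end. A shared distal region was present at 7 of 7 genes, against 39.3% of all protein-coding genes, and 5 of 7 had 2 or more, against 18.3%. *Clec4g* and *Oit3* had 1 each. A shared region within 1 kb of a gene end was present at 4 of 7 genes, *Stab1*, *Lyve1*, *Fcgr2b*, and *Oit3*, against 44.1% of all genes. The same 4 genes had a C2 peak near an end, against 43.4% of all genes, whereas all 7 had a C3 peak there, against 53.9%. Among genes with both a near and a distal C3 peak, the distal peak had the higher fold enrichment at 6 of 7 receptor genes, all but *Lyve1*, and at 36.5% of 9751 genes overall. That comparison was chosen after the values had been seen. In C2, where 4 receptor genes had a near peak, the distal peak was higher at 3 of them and at 41.1% of 5467 genes overall. A longer window can hold more peaks, so the numbers of regions per 10 kb are given with each gene.

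**Figure D1:**
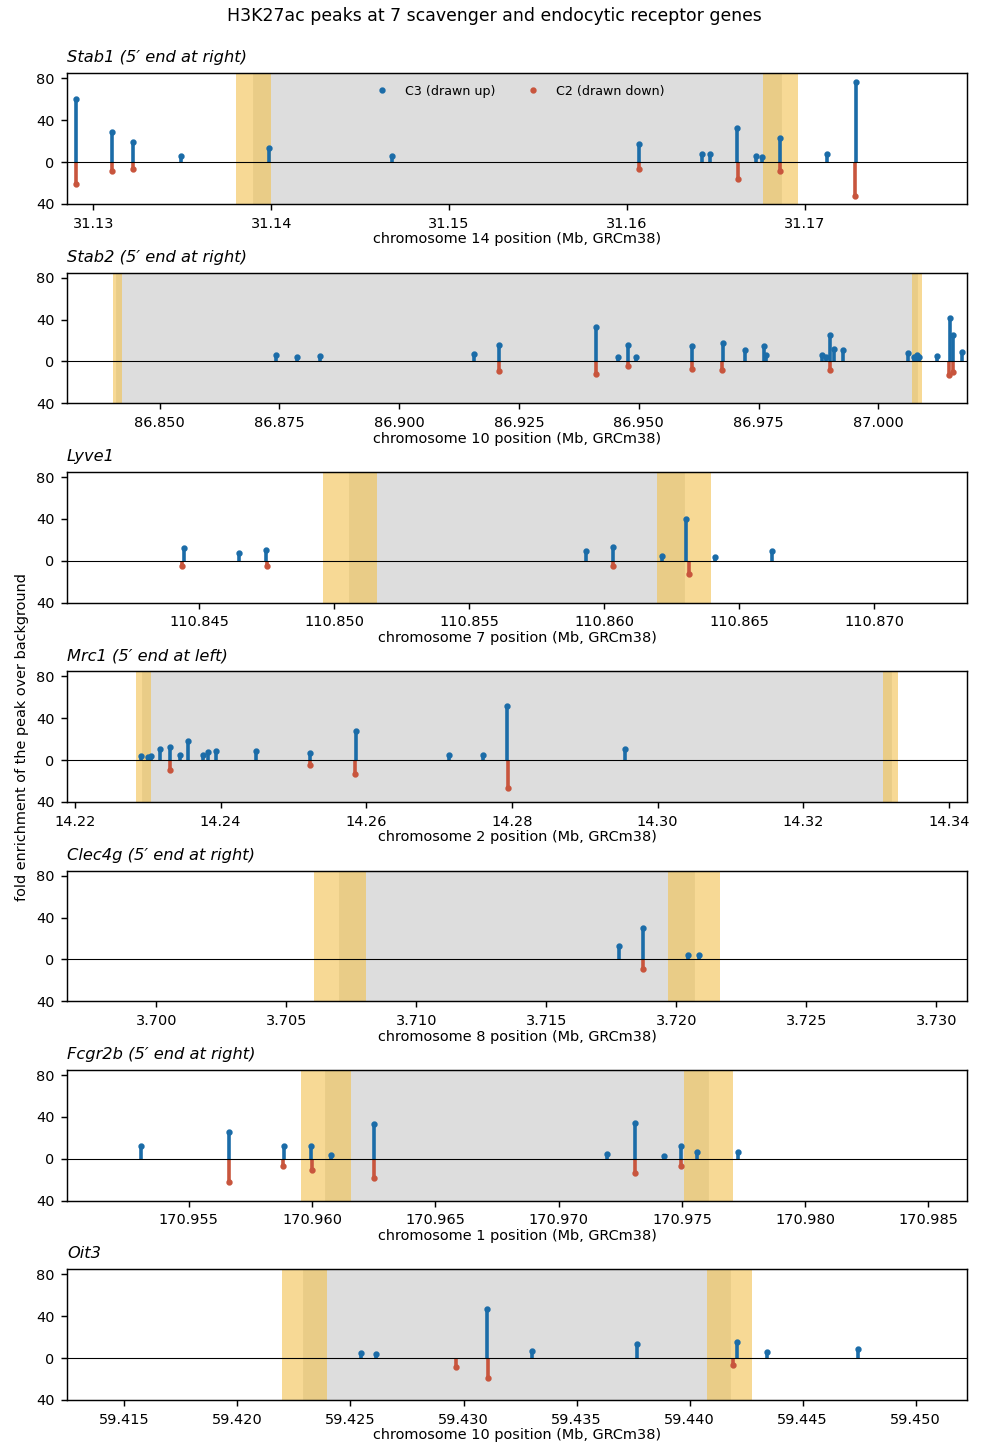
H3K27ac peaks of C3 (blue, drawn up) and C2 (red, drawn down) at the 7 receptor genes, placed at their summits on GRCm38, with the authors' fold enrichment on the vertical axis, the gene body in grey, and the 1 kb on each side of a gene end in yellow. The highest C3 peak lay outside the yellow bands at 6 of 7 genes, and at *Lyve1* it lay on a gene end.

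*Stab1* and *Stab2* encode the stabilins, large scavenger receptors that take up hyaluronan, oxidised lipoproteins, and other modified ligands. The *Stab1* body, chr14:31139017-31168651 on the minus strand, spans 29.6 kb. Its window held 7 C2 and 15 C3 peaks and 7 shared regions, or 1.41 per 10 kb. Across its 5′ end, at 31168050 to 31168864, a shared region had a fold enrichment of 8.81 in C2 and 23.3 in C3. These values were at the 19th and 30.9th percentiles of all genes with a peak near an end in the same library. The strongest region of the locus lay 3.69 kb upstream of the start, at 31172330 to 31173454, and reached a fold enrichment of 32.5 in C2 and 76.5 in C3. It ranked at the 95.9th percentile of the C2 list and the 96.7th of the C3 list, the highest percentile of any receptor region in either list. It also lies within the body of *Nisch*, the neighbouring gene, and which gene it belongs to was not tested. In the *Stab1* body, a shared region 1.5 kb from the start had 15.9 in C2 and 32.2 in C3, and another 7.75 kb from the start, over the long noncoding RNA gene *Gm52148*, had 6.78 and 17.7. The other 3 shared regions lay beyond the 3′ end within 1 kb of an end of *Nt5dc2* or of *Smim4*, a gene just outside the window that was named after its values were seen, with C3 fold enrichments of 18.8 to 60.2. At the 3′ end of *Stab1* itself, C3 had a peak with a fold enrichment of 13.2 and C2 had none.

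*Stab2* differed from *Stab1* at its 5′ end. Its body, chr10:86841194-87008038 on the minus strand, spans 166.8 kb and is the longest of the 7. The window held 8 C2 peaks, 27 C3 peaks, and 8 shared regions, or 0.428 per 10 kb, all of them distal. Near the 5′ end, C2 had no peak, and the 3 C3 peaks had fold enrichments of 4.56, 5.86, and 4.53. The highest of these was at the 27.6th percentile of the C3 list and at the 4.61st percentile of genes with a C3 peak near an end. The strongest region lay upstream of the start. It spanned 87014436 to 87015248, was 6.49 kb away, and had 12.8 in C2 and 41.7 in C3. Beside it, at 87015314 to 87015925 and 7.37 kb away, another had 10.2 and 25.7. Both lie within the body of the long noncoding RNA gene *Gm16271*, which also overlaps the 5′ part of *Stab2*. The other 6 shared regions were spread over the body between 17.4 and 86.9 kb from the start. The highest of these in both libraries, at 86940940 to 86941437, had 12.2 in C2 and 33.0 in C3. The lowest in C2, at 86947540 to 86948024, had 4.58, at the 0.923rd percentile of the C2 list, and 15.3 in C3, at the 68.5th percentile of the C3 list. No peak of either library lay within 1 kb of the 3′ end of *Stab2*.

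*Lyve1* encodes a membrane receptor for hyaluronan and was the receptor gene with the strongest peak at a gene end. Its body, chr7:110850607-110862953, spans 12.3 kb, and the window held 4 C2 peaks, 9 C3 peaks, and 4 shared regions, or 1.24 per 10 kb. The region over the end at 110862953 ran from 110862524 to 110863443 and had a fold enrichment of 12.9 in C2 and 39.5 in C3. These values were at the 37.9th and 50.9th percentiles of genes with a peak near an end in the same library. The distal shared regions were weaker. One in the body had 4.6 in C2 and 13.2 in C3, and a flanking region, 2.98 kb beyond the other end, had 4.6 and 10.7. The last, with 5.42 and 12.6, lay within 1 kb of an end of *Rnf141*. The C2 values of these 3 regions lay between the 1.14th and 7.67th percentiles of the C2 list and the C3 values between the 57.2nd and 64.1st percentiles of the C3 list.

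*Mrc1* and *Clec4g* encode C-type lectins, the mannose receptor and LSECtin, which bind sugars on glycoproteins, and neither had a C2 peak within 1 kb of a gene end. The *Mrc1* body, chr2:14229414-14332023 on the plus strand, spans 102.6 kb. Its window held 4 C2 peaks, 17 C3 peaks, and 4 shared regions, or 0.326 per 10 kb, and all 4 lay in the body. The strongest, at 14278990 to 14279691, lay 49.6 kb from the start and had a fold enrichment of 27.1 in C2 and 52.1 in C3, at the 92.4th and 92.1st percentiles. A second, 28.8 kb from the start, had 12.9 and 28.0. The region closest to the start, 3.50 kb away, had 9.49 and 12.4, and the weakest had 4.74 and 6.51. The body also holds the *Mir511* hairpin, which lay between 2 of the C3 peaks and under none. At the start of *Mrc1*, C3 had 3 peaks with fold enrichments of 3.58, 2.74, and 4.15, the highest of them at the 6.14th percentile of the C3 list. Between 2.04 and 15.3 kb from the start, C3 had another 7 peaks without a C2 peak, which reached 18.2, the highest C3-only value of all 7 genes.

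The *Clec4g* body, chr8:3707066-3720695 on the minus strand, spans 13.6 kb. Its window held the fewest peaks, 1 in C2 and 4 in C3, and 1 shared region, or 0.297 per 10 kb, the lowest density of the 7 genes. The shared region, at 3718463 to 3718949 in the body and 1.70 kb from the start, had a fold enrichment of 9.15 in C2 and 30.0 in C3. These values were at the 45.4th and 83.0th percentiles of the lists. On either side of the start, C3 had peaks with fold enrichments of 4.56 and 4.13, and the remaining C3 peak, next to the shared region, had 13.0. The long noncoding RNA gene *Gm16553* overlaps the body of *Clec4g*, including the shared region.

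*Fcgr2b* encodes the inhibitory low-affinity receptor for IgG, which takes up small immune complexes in LSECs. Its body, chr1:170960558-170976071 on the minus strand, spans 15.5 kb. The window held 6 C2 peaks, 12 C3 peaks, and 6 shared regions, which at 1.69 per 10 kb was the highest density of the 7 genes. Shared regions lay near both ends, with 11 in C2 and 12.2 in C3 beyond the 3′ end and with 6.78 and 12.4 inside the 5′ end. The latter, at 170974841 to 170975296, reached within 1 kb of the 5′ end through its C3 peak, and its C2 peak lay just farther away. A C3 peak of 6.84 with no C2 peak stopped 20 bp short of the start. The stronger regions were distal. In the body, one 2.25 kb from the start had 13.3 in C2 and 34.2 in C3, and one 1.59 kb from the 3′ end had 18.3 and 33.0. Beyond the 3′ end, a region at 170956372 to 170956986 had the highest C2 value of the locus, 22.4, with 26.0 in C3.

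*Oit3* encodes a zona pellucida domain protein of liver and is counted here with the receptors as an LSEC gene. Its body, chr10:59422960-59441779, spans 18.8 kb, and the window held 3 C2 peaks, 8 C3 peaks, and 2 shared regions, or 0.515 per 10 kb. One was the broadest shared region of the 7 genes, 2333 bp wide at 59429312 to 59431644 in the body, where 1 C3 peak with a fold enrichment of 47.1 covered 2 C2 peaks with 8.81 and 19. The other lay over the end at 59441779, with 6.71 in C2 and 15.2 in C3. That end lies within 1 kb of an end of the long noncoding RNA gene *Gm36318*.

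By the highest distal fold enrichment in C3, the genes ranked from *Stab1* (76.5) through *Mrc1* (52.1), *Oit3* (47.1), *Stab2* (41.7), *Fcgr2b* (34.2), and *Clec4g* (30.0) to *Lyve1* (13.2). In C2 the order was *Stab1* (32.5), *Mrc1* (27.1), *Fcgr2b* (22.4), *Oit3* (19), *Stab2* (12.8), *Clec4g* (9.15), and *Lyve1* (5.42). *Fcgr2b* changed place and the other 6 kept their order in both libraries. With 1 value per library, whether neighbours in this order differ was not tested. The order includes the 10 kb flanks, where the highest C3 values of *Stab1* and *Stab2* lay. Within its body, the highest distal C3 value of *Stab1* was 32.2. That was below the body values of *Mrc1* (52.1), *Oit3* (47.1), *Fcgr2b* (34.2), and *Stab2* (33.0). Near the gene ends, fold enrichments were mostly below those of other genes. The highest near C3 fold enrichment had a median of 12.4 over the 7 genes, against 38.7 over all genes with such a peak, and *Lyve1* alone was above that value. In C2, the 4 values ran from 6.71 to 12.9, all below the median of 16.3 over all genes with such a peak.

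The share of a window covered by peaks of both libraries was 6.05% at *Fcgr2b*, 5.18% at *Stab1*, 3.54% at *Lyve1*, 2.89% at *Oit3*, 1.52% at *Stab2*, 1.05% at *Mrc1*, and 0.583% at *Clec4g*. The median over all protein-coding genes was 0.578%. The receptor genes ranked between the 50.1st percentile of all genes, at *Clec4g*, and the 97.3rd, at *Fcgr2b*, with a median of 86.0. *Stab2* and *Mrc1*, with the longest bodies, were at the 69.6th and 60.7th percentiles.

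The 32 shared regions had median fold enrichments slightly below those of all shared regions. Their median fold enrichment was 9.32 in C2, with a range of 4.58 to 32.5, and 24.5 in C3, with a range of 6.51 to 76.5. Over all 24199 shared regions the medians were 10.5 and 27. Of the 32, 14 exceeded the list median in C2 and 31 did so in C3, the exception being the weakest *Mrc1* region. The median percentile was 46.6 in C2 and 79.1 in C3, against 53.8 and 81.0 over all shared regions. The lists differ in length, and with both held to the same number of strongest peaks the median C3 percentile was 52.3. The 5 regions near a gene end had median fold enrichments of 8.81 and 15.2, and the 27 distal ones 9.49 and 25.7. The median distance between the summits of the 2 libraries was 33.5 bp, against 30 bp over all shared regions. Of the 32 pairs, 29 lay within 100 bp, and the widest gap, 195 bp, was at the end of *Oit3*. Across the 32 regions, which share 2 libraries and in part the same loci, Spearman's rho between the C2 and C3 fold enrichments was 0.806, against 0.843 over all shared regions.

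**Figure D2:**
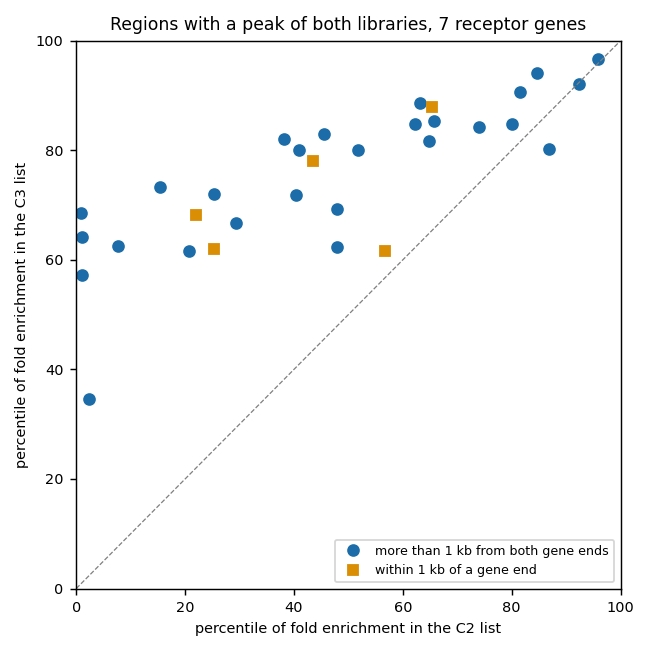
Percentile of fold enrichment in the C2 list (horizontal) and in the C3 list (vertical) for the 32 shared regions at the 7 receptor genes, with circles for distal regions, squares for regions within 1 kb of a gene end, and a dashed line of equal percentiles. All but 1 region lay above the 50th percentile in C3, the longer list, and 14 did in C2.

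The 60 regions with a C3 peak only were weaker. Their fold enrichments ran from 2.74 to 18.2, and the median was 6.16, against 6.20 over all 40204 such regions. Of these, 26 exceeded the lowest C3 value of a shared region. At *Stab2*, *Mrc1*, and *Clec4g*, every peak near a gene end was of this kind. Whether C2 lacked acetylation there or the peaks were below what C2 could detect cannot be told apart.

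RefSeq promoter sequences of GRCm38.p6, taken as the 250 bases before the start, matched 5 of the 7 genes, all but *Lyve1* and *Oit3*. A C2 peak lay over 1 of the 5, *Stab1*, against 42.9% of the 17492 protein-coding genes with a promoter entry, and a C3 peak over 4 of the 5, all but *Fcgr2b*, against 51.8%. C3 peaks covered 223 bases of the *Stab1* promoter, 175 of *Stab2*, 109 of *Clec4g*, 13 of *Mrc1*, and 0 of *Fcgr2b*, and the C2 peak covered 105 bases of *Stab1*. All 5 promoters were poor in CpG dinucleotides, with 5 in *Stab1* and *Fcgr2b*, 4 in *Clec4g*, and 3 in *Stab2* and *Mrc1*, against a median of 10 over all 21263 promoters of these genes. Of the 8036 promoters with at most 5 CpG dinucleotides, 4.92% had a C2 peak and 9.82% a C3 peak. Of the 13227 with more, 61.7% and 74.4% did. This split was chosen after the CpG counts had been seen.

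Fixed letters were searched on both strands. The ETS core GGAAG occurred in 5 of 5 promoters and in 65.1% of all promoters, and the E-box CANNTG in 3 of 5, *Stab1*, *Mrc1*, and *Fcgr2b*, and in 62.8%. The MAF letters TGCTGA occurred only in *Stab1* (14.9% of all promoters), the SP1 letters GGGCGG only in *Mrc1* (42.6%), and the SOX letters ACAATG (9.35%) and the TATA letters TATAAA (11.6%) only in *Clec4g*. None of the 5 held the GATA letters AGATAA (8.81%), the AP-1 letters TGANTCA (6.13%), or the SOX letters ACAAAG (14.9%). The promoters of *Stab1*, *Stab2*, and *Fcgr2b* are shown because they carried peaks of both libraries, a peak of C3 alone, and no peak. They are written 5′ to 3′ on the minus strand of chr14:31168642-31168891, chr10:87007943-87008192, and chr1:170976072-170976321 (GRCm38.p6). Capitals mark a match to any of the letters above on either strand. In *Stab1*, 2 ETS matches stand side by side, and no matches to different letters overlap in the 3 sequences. A match describes the letters only.
*Stab1*: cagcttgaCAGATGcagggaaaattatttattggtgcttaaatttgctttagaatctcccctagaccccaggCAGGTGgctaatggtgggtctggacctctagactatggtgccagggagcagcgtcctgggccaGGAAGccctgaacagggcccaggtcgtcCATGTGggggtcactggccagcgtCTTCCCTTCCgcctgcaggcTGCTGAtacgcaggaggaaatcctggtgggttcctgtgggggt
*Stab2*: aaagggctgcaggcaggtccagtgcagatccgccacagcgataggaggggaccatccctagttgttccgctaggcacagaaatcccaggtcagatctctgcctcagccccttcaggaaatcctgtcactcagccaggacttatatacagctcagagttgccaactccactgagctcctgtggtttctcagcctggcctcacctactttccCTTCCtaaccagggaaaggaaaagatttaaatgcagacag
*Fcgr2b*: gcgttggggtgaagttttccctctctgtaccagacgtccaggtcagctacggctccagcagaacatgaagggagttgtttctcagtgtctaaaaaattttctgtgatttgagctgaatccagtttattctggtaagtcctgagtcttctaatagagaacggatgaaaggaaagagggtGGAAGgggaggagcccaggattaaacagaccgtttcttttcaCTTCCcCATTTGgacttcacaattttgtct

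Other receptors and the uptake machinery were set beside the 7 genes. For these lists, distal means away from the ends of the listed gene, and ends of other genes were not checked. Of 40 other receptor genes, 16 (40%) had a shared region near an end and 22 (55.0%) a shared distal region, against 44.1% and 39.3% of all genes. Among 18 other scavenger receptors these numbers were 10 and 12. *Scarb2*, a lysosomal membrane receptor, had the highest near fold enrichment, 19.5 in C2 and 46.1 in C3, and 4 had no peak. Of the macrophage receptors, *Marco* and *Cd163* were among these 4. By contrast, *Cd68* and *Msr1* had shared regions both near an end, with C3 values of 18.4 and 13.6, and distal. *Cd163*, *Cd68*, and *Msr1* were named after their values were seen. Among 16 other lectin receptors the numbers were 5 and 5, with near values of 21.6 and 66.4 at *Cd93* and 18.9 and 47.9 at *Thbd*. Among 6 other Fc receptors they were 1 and 5, the 1 being *Fcgrt*, which encodes the neonatal Fc receptor, with 13.6 and 21.9. The highest distal values of this list, 39.1 and 86.5, were at *Fcer1g*, named after its values were seen. Of 34 genes for clathrin-coated vesicles, endosomes, and lysosomes, 31 (91.2%) had a shared region near an end, with a median near C3 fold enrichment of 59.3 against 12.4 at the 7 receptor genes, and 26 (76.5%) had a shared distal region. By list, 14 of 16 vesicle genes and 17 of 18 endosome and lysosome genes had one near an end. The highest near C3 value, 142 with 48.1 in C2, was at *Hspa8*, the gene for the chaperone that uncoats clathrin. The 3 without a shared region near an end were *Clta*, *Dab2*, and *Ifi30*, named after their values were seen.

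The label of the cells was checked against marker genes. Of 12 other LSEC or endothelial markers, 11 had a shared region near an end, all but *Tek*, and 12 had a shared distal region. Of 10 Kupffer cell markers, 0 had a peak of either library near an end, 8 had no peak in their windows, *Clec4f*, *Vsig4*, and *Timd4* among them, and *Csf1r* and *Folr2* had shared distal regions, with highest distal C3 values of 32.7 and 14.1. *Clec4f* and *Marco* are also in the receptor lists. A shared region near an end was present at 1 of 10 hepatocyte markers (*Trf*), 1 of 10 hepatic stellate cell markers (*Ecm1*), 1 of 7 lymphocyte markers found in the annotation (*Cd79a*), 2 of 5 lymphatic markers (*Prox1* and *Sox18*), and 4 of 6 markers of continuous endothelium. Shared distal regions were present at 3 of 10 hepatocyte, 0 of 10 stellate cell, 3 of 7 lymphocyte, 2 of 5 lymphatic, and 3 of 6 continuous endothelial markers. The 3 hepatocyte markers with shared distal regions were *Hnf4a*, *Trf*, and *Alb*, with highest distal C3 values of 59.3, 31.7, and 16.9, and *Trf* had 78.8 near an end. *Apoa1* and *Apob* had C3 peaks near an end, each with 11.4, and no C2 peak. The 3 lymphocyte markers with shared distal regions, *Nkg7*, *Cd79a*, and *Cd4*, had highest distal C3 values of 91.8, 68.7, and 13.7. Whether the distal peaks of marker genes lie at an end of another gene was not checked. The part of other cells in the peaks of the 7 receptor genes was not tested.

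**Figure D3:**
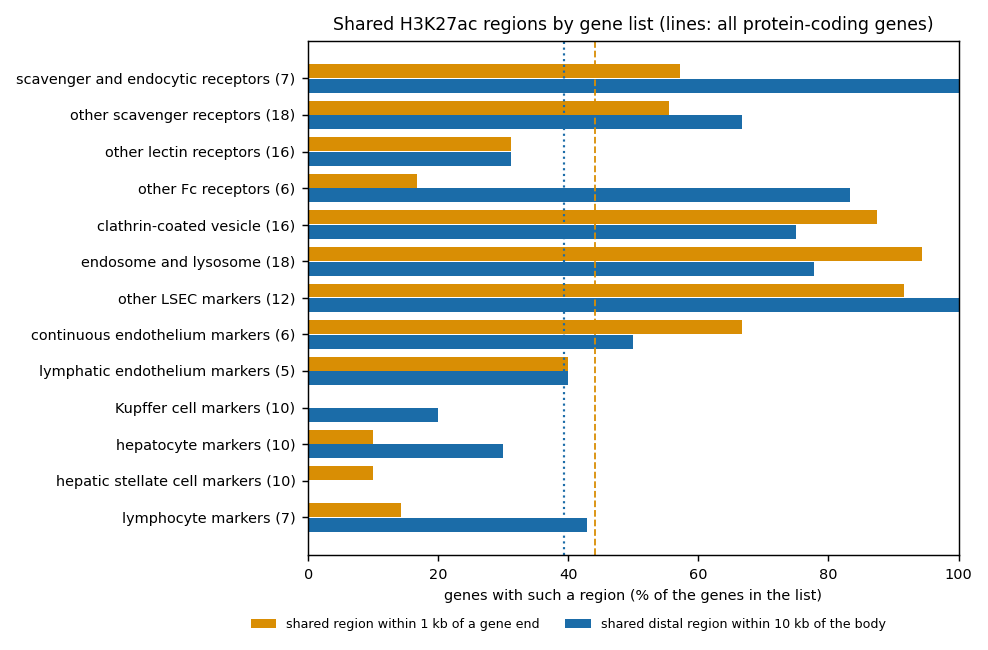
Share of the genes in each list (number of genes in brackets) with a shared H3K27ac region within 1 kb of a gene end (orange) and with a shared distal region in the body or the 10 kb on each side (blue), with lines at the shares of all protein-coding genes, 44.1% (dashed) and 39.3% (dotted). The 7 receptor genes and the 12 other LSEC or endothelial markers, labelled other LSEC markers, all had a shared distal region. A shared region near an end was present at 4 of the 7 and at 11 of the 12.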

How the data were processed

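H3K27ac and input libraries of isolated mouse LSECs were grouped by the labels. The authors deposited 1 peak list per H3K27ac library, called per library, with 10 columns. The deposited fold enrichment is a ratio to background. The authors' next columns hold the −log10 of the p-value and of the q-value, and the deposited score equals 10 times the −log10 q cut to a whole number in all 26975 and 64498 peaks. The largest q-values were 0.0091 and 0.0098. The submitters' processing notes name mm10, cutadapt 0.4.4, BWA 0.7.17, Picard 1.67, MACS2 2.0.10, and bedtools 2.27.1, without roles. Whether the inputs served as controls is not given in the sources used here. Read depth is unknown.

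Gene bodies came from the RefSeq table of GRCm38.p6, and strands and starts from its promoter table. Exons and introns were not told apart. Peaks overlapping by at least 1 bp were merged, and the merging and counting were tested on simulated data. Each percentile is a rank by fold enrichment within a list or among genes with a peak near an end, or a rank by covered share among all 21887 protein-coding genes. No test was made, since 2 libraries of 1 condition allow none between conditions. Named genes are the 7 receptor genes, their neighbours, and at most 4 of each list of receptors or uptake genes. The latter were those with the highest near C3 values or without a peak, and further genes named outside this rule are marked. No such rule was set for the marker lists, and the genes named from them were picked after their values were seen. The receptor genes and lists were chosen with earlier results of these data known. The alternatives were a stricter q-value, equal numbers of peaks, reciprocal overlap, other windows and distances, the 5′ end alone, regions joined or left out, other rankings, and each library alone. Calculations ran in Python 3.11.15 with pandas 2.3.3, numpy 2.4.6, and scipy 1.17.1, and figures were drawn with matplotlib 3.10.9.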

Additional observations from a re-analysis of the deposited data

How the results depend on the processing

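No paired analysis was possible because there is 1 condition with peak lists and no result comes from a test. Over 12 results and 90 alternatives, 64 stayed within their limit and 26 moved beyond it. The limit was 1.5 times for a count, the spread of the 2 libraries for a median percentile, and the Wilson interval for a share. Reversals were not scored. Of 145 alternatives for single genes, 98 stayed and 47 moved. The number of receptor genes with a shared region near an end, 4, was 2 with the 5′ end alone, known for 5 genes, and 4 to 7 with either library omitted. The 2 genes lost with the 5′ end alone, *Lyve1* and *Oit3*, have no known start here, and *Stab1* and *Fcgr2b* stayed. The number with a shared distal region, 7, was 5 by reciprocal overlap, without *Clec4g* and *Oit3*, 6 at q-values up to 1e-05, without *Lyve1*, and 6 with 2.5 kb from a gene end, without *Clec4g*. Shared regions, 32, were 18 with a reciprocal overlap of at least 50%, 21 within the gene bodies, and 20 with regions within 5 kb joined. For distal ones, 27, these values were 14, 17, and 15. With a library omitted, no region can be shared, and every peak of the other library was counted. That gave 33 to 92 peaks, 29 to 74 of them distal. The other values with a library omitted likewise rest on all peaks of 1 library, and all enter the counts of alternatives above. C2 peaks, 33, were 21 within the gene bodies. With both lists held to equal numbers of strongest peaks, C3 peaks went from 92 to 39, the share with a C2 peak from 34.8% to 76.9%, and the median C3 percentile from 79.1 to 52.3. Reciprocal overlap lowered the share to 19.6%. With a library omitted, the median percentile of the regions of the other library was 45.4 to 49.0. The median percentile of covered share, 86.0, fell to 76.6 at q-values up to 1e-05 and was 80.1 with reciprocal overlap, 65.6 with 50 kb on each side, and 85.8 to 93.8 with a library omitted. Reciprocal overlap left 3 of 16 other receptor genes and 17 of 31 vesicle and lysosome genes with a shared region near an end, and the 5′ end alone, known for 28 of the 40 other receptor genes, left 9 of the former. The number of receptor genes with a higher distal than near C3 peak, 6 of 7, was 3 of 4 with lists of equal length and 3 of 4 without C3, while the share over all genes, 36.5%, was 39.2% and 41.1%, by alternatives chosen after seeing the data. The cause was not tested, except where an alternative itself removes or joins peaks. Unknown depth limits what a missing C2 peak can show.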
